A study of Mus musculus with 4 samples.

Results

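Replicating cells need a supply of deoxynucleotides and a set of proteins that copies DNA at the fork, and 35 mouse genes of this work were followed here in erythroid cells with and without Med16. They encode DNA polymerases and primase, the sliding clamp and its loader, the GINS complex and CDC45, replication protein A, fork protection factors, nucleotide enzymes, and factors that rebuild chromatin and DNA methylation behind the fork. The genes were chosen by symbol from the 56691 genes of the count tables, all 35 were found, and all 35 were among the 13052 genes tested. The libraries are poly(A) RNA of Ter119+ cells of mouse bone marrow, where Ter119 is a surface antigen of the erythroid lineage. There were 2 libraries of genotype Med16 fl/fl, with floxed alleles, and 2 of genotype Med16 KO, all with a time label of 3 weeks and the developmental stage given as erythroid. Med16 encodes a subunit of Mediator, which links transcription factors to RNA polymerase II. The sources used here do not give the strain, the Cre driver, the exons deleted, the age of the mice or what the 3 weeks are counted from. The labels do not tell whether the 2 libraries of each genotype came from different mice. The p values here set the genotype difference against the spread of these libraries only, and that spread may be technical.

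At an activated origin the MCM ring, CDC45 and GINS form the helicase that unwinds DNA. Polymerase alpha with primase lays down primers, polymerase epsilon extends the leading strand, and polymerase delta, held by the PCNA clamp, extends the lagging strand. Many of these genes are transcribed around the entry into S phase under E2F factors, and early erythroblasts divide several times before they condense and lose the nucleus.

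Med16 was lower in both libraries labelled KO. It had 23.2 and 18.4 CPM in fl/fl libraries 1 and 2, and 2.24 and 4.40 CPM in KO libraries 1 and 2, with no overlap (log2 fold change -2.64, SE 0.34, adjusted p = 4.6e-05). Libraries held 6749196 to 7216333 counts assigned to genes, so 1 count was worth 0.140 to 0.147 CPM (the count scaled to a common library depth with TMM, the unit of all levels here). All 12 erythroid markers were detected in every library, and their summed level was 195045 to 195123 CPM in fl/fl and 185423 to 196426 CPM in KO; 8 of them fell and 3, Hba-a1, Hba-a2 and Alas2, rose, though with an offset for GC content 8 fell and 1 rose, with Hba-a1 at -0.0054 (log2), and DESeq2 called 7 lower and 2 higher. Levels of markers of further cell types differed by genotype. Of 7 neutrophil precursor markers, 6 rose, Mpo (log2 fold change 1.29) and Elane among them, with summed levels of 2152 to 2166 CPM in fl/fl and 4658 to 4814 CPM in KO, and of 7 neutrophil markers 5 rose (11212 to 11366 CPM in fl/fl, 14122 to 14388 CPM in KO). Of 6 megakaryocyte markers tested, 5 rose (49.7 to 58.0 CPM in fl/fl, 144 to 148 CPM in KO), and Gp1bb had no count in any library. Of 7 monocyte and macrophage markers, Csf1r and Ly6c2 rose and the other 5 were not called. Fold changes were negative for 4 of the 7, with a median of -0.016. The summed level of the list was 445 to 454 CPM in fl/fl and 559 to 569 CPM in KO. Its most abundant gene, Ly6c2, had a mean of 198 CPM in fl/fl and 288 CPM in KO. The 10 B cell precursor markers had a summed level of 242 to 257 CPM in fl/fl and 227 CPM in KO, and 9 of them had negative fold changes (median -0.34). Rag1 was lower at an unadjusted p under 0.05 (-0.86), and Cd79a was called higher (0.46), though not with the GC offset (0.30, adjusted p = 0.14) or the transcript length offset (0.078), nor without fl/fl library 1 (0.34) or 2 (0.16). Of 3 T and NK cell markers tested none was called by edgeR, Nkg7 being higher at an unadjusted p under 0.05 (summed level of the list 33.8 to 35.3 CPM in fl/fl and 43.5 to 44.0 CPM in KO; Klrb1c had no count in KO library 2); DESeq2 also called none. The part of these cells in the results that follow was not tested.

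The genes of DNA synthesis and nucleotide supply were mostly lower in Med16 KO, by modest amounts. Of 35 tested, 14 fell and 1 rose (quasi-likelihood test of edgeR, p under 0.05 after Benjamini-Hochberg adjustment over all genes). That is 40.0% and 2.86% of them, while 9.89% of all genes tested were called lower and 8.5% higher. The median level was 99.5 CPM for the 35 and 18.2 CPM for all genes tested, so these shares compare genes of unlike level. The 35 were also chosen with earlier results of these data known. Those that fell were Rrm1, Rrm2, Tyms, Tk1, Slbp, Pola1, Pcna, Rfc1, Fen1, Lig1, Rpa1, Rpa3, Clspn and Uhrf1, and the gene that rose was Pold1. The median log2 fold change of the 35 was -0.23, a level 14.5% lower, against 0.017 over all genes tested. The fold change was negative for 29 of the 35, against 48.5% of all genes tested. Both KO libraries lay below both fl/fl libraries for 24 of the 35 (28.2% of all genes tested) and above both for 1 (29.4%), and the genotypes overlapped for 10. Together the 35 genes took 0.636% and 0.629% of assigned counts in fl/fl, and 0.551% and 0.550% in KO. In bulk RNA, fewer cells in S phase and less of these transcripts per cell cannot be told apart.

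**Figure D1:**
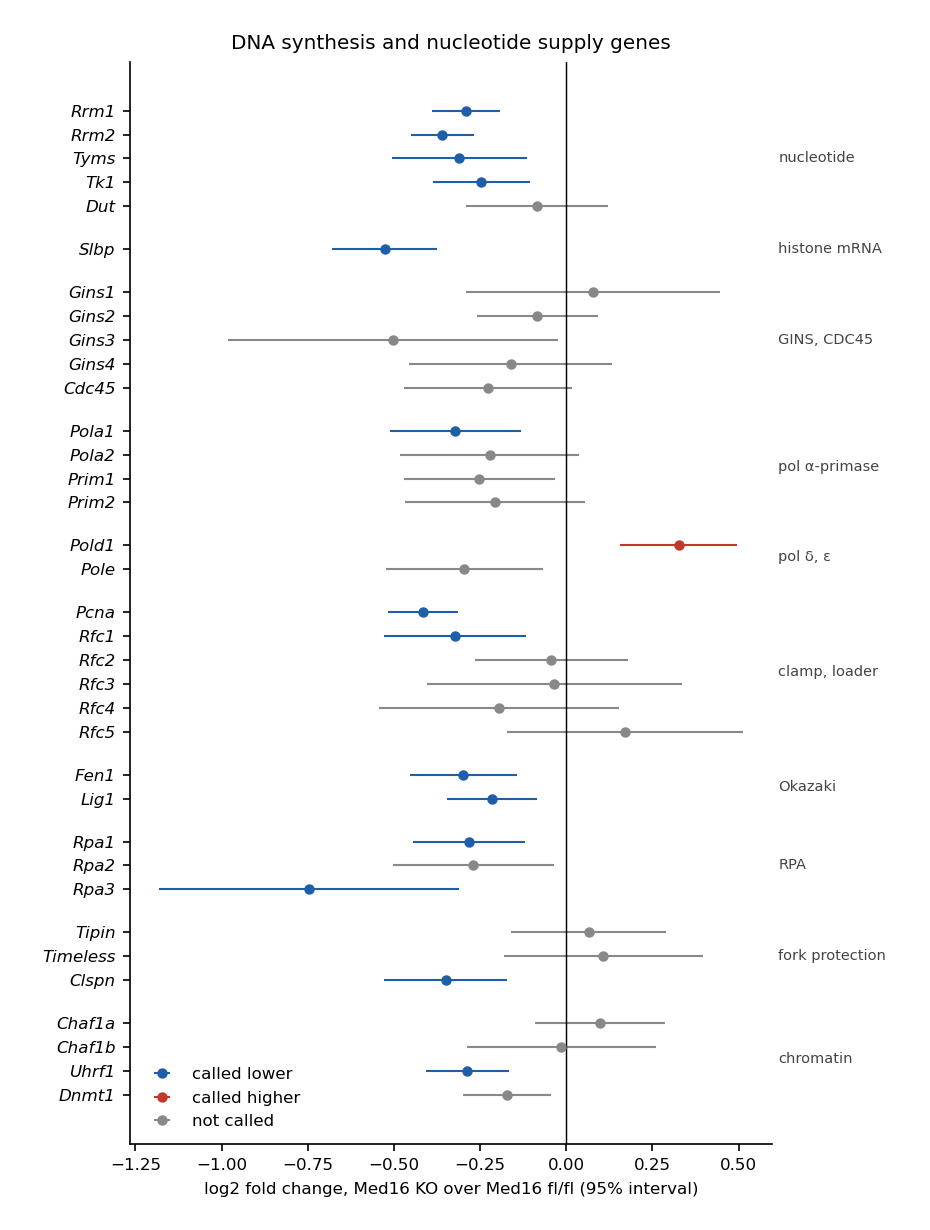
Log2 fold change of each of the 35 genes in Med16 KO over Med16 fl/fl (x axis), with its 95% interval as a line, ordered by role (right). Blue points were called lower (14 genes), the red point higher (Pold1) and grey points were not called.

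The precision of these calls is limited by 2 libraries a genotype. The median log2 fold change of the 35 was -0.24 when fl/fl library 1 was dropped and -0.25 when its replicate was. Dropping KO library 1 gave -0.25 and dropping KO library 2 gave -0.26. Fewer genes were called when an fl/fl library was dropped, and more when a KO library was. This held among all genes tested as well as among the 35, so the change in calls was not particular to the 35. DESeq2 with its own estimates called 15 lower and 1 higher. In the main fit the spread was estimated gene by gene. The coefficient of variation between replicates was 0.125 when 1 value was shared by all genes. With a value of 0.2 imposed on every gene, none of the 35 was called in either direction by edgeR's likelihood ratio test. At an unadjusted p under 0.05 in that test, 1 was lower and none higher. The calls of 5 genes, Rrm1, Rrm2, Slbp, Pcna and Uhrf1, held under every other alternative tried.

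The DNA before the start of these 5 of the 14 genes that fell is shown beside that of Pold1, which rose. The rise of Pold1 did not hold with an offset for GC content. The bases are from RefSeq on build GRCm38.p6, which is not the build of the counts (GRCm39), are written 5′ to 3′ in the direction of the gene, and end before the first base of the gene's own annotated 5′ UTR. Capitals mark CCAAT on either strand, the box bound by NF-Y, and the core of E2F sites, searched on both strands in the form TTCCCGC, the form TTCGCGC, the form TTGCCGC or the form TTGGCGC. For Rrm1, on the plus strand at chr7:102441445-102441694, 2 CCAAT boxes and 1 E2F core were found.
Rrm1: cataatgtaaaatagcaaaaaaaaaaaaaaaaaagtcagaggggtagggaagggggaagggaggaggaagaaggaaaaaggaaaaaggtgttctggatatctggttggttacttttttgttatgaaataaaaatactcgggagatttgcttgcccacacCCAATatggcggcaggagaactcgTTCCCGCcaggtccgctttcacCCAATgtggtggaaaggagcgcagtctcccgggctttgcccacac
For Rrm2, on the plus strand at chr12:24708004-24708240, there was 1 of each.
Rrm2: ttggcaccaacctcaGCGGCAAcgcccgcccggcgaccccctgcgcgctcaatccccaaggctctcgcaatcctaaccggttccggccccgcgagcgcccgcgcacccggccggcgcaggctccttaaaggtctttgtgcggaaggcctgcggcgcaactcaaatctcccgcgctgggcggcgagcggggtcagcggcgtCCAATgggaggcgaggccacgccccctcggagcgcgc
For Slbp, on the minus strand at chr5:33652575-33652824, 3 CCAAT boxes were found and no E2F core.
Slbp: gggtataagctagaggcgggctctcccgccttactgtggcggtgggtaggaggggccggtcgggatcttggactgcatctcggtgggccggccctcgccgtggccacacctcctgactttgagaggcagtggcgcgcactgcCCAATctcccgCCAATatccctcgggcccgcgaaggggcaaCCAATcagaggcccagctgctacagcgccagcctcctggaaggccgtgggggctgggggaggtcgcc
For Uhrf1, on the plus strand at chr17:56303087-56303320, the earlier of 2 listed starts had 1 of each.
Uhrf1: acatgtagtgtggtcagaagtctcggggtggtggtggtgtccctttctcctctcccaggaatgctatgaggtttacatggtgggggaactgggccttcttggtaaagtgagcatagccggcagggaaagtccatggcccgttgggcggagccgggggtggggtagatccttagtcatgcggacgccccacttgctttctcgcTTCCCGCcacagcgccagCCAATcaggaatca
For Pcna, on the minus strand, the box lies within an annotated 5′ UTR and is shown as a site of 30 bases at chr2:132253250-132253279.
Pcna: accacgggtacgATTGGtccttgaggagag
For Pold1, on the minus strand at chr7:44548848-44549065, neither motif was found.
Pold1: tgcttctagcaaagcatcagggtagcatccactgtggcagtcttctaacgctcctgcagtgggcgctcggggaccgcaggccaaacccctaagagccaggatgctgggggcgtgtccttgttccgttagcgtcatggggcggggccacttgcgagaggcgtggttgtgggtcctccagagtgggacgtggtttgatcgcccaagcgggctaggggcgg

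Of the 35 genes, 28 had an entry among the RefSeq promoters, and the 250 bases before the start were searched, counting a gene with several starts as a match if any of them matched. An E2F core was present in 13 of the 28 (46.4%), against 16.2% of the 9296 genes tested that had an entry and 9.01% of all 27025 genes with one. CCAAT was present in 17 of the 28 (60.7%), against 40.7% and 37.5%. The longer E2F forms TTTCCCGC, TTTCGCGC, TTTGCCGC and TTTGGCGC, which contain the cores, were present in 5 (17.9%, against 3.93% and 2.16%). TTTGAA, the letters of the cell cycle homology region found in many G2 and M phase genes, were present in 4 (14.3%, against 13.3% and 18.3%). Split by call, an E2F core was present in 6 of 14 genes that fell and in 7 of 13 that were not called, and CCAAT in 10 of 14 and 7 of 13. Tk1, Tyms and Lig1, which fell, had neither, as had Pold1. Dnmt1, Gins3, Rpa2 and Chaf1a were among the genes not called that had both. These are matches of letters and not measured sites. Bases just after the start were found in a transcript of the gene for 29 of the 34 starts searched. They were not found for the only listed starts of Chaf1a, Rpa1 and Rfc4, so those starts are uncertain.

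Of the 5 nucleotide enzymes, 4 fell. Ribonucleotide reductase makes deoxynucleotides from ribonucleotides, with Rrm1 encoding its large subunit and Rrm2 the small subunit that limits its activity in S phase. Rrm1 was at 684 and 707 CPM in fl/fl libraries 1 and 2, and 571 and 566 CPM in KO libraries 1 and 2, and Rrm2 at 875 and 859 CPM in fl/fl against 669.8 and 682 CPM in KO. Neither gene's genotypes overlapped, and both fell (Rrm1 log2 fold change -0.29, SE 0.046, adjusted p = 0.00034; Rrm2 log2 fold change -0.36, SE 0.043, adjusted p = 2.4e-05). Tyms, the enzyme that makes thymidylate, was at 152 and 131 CPM in fl/fl libraries 1 and 2, and 117 and 112 CPM in KO libraries 1 and 2. Its fl/fl libraries differed from each other more than its KO libraries did, and without fl/fl library 1 its call was lost (all libraries: log2 fold change -0.31, SE 0.092, adjusted p = 0.029; without it: -0.21, adjusted p = 0.49). Tk1, the cytosolic thymidine kinase that salvages thymidine, was at 257 and 249 CPM in fl/fl against 219 and 207 CPM in KO, a fall without overlap (log2 fold change -0.25, SE 0.066, adjusted p = 0.016). That call ended without fl/fl library 1 (adjusted p = 0.17) or 2 (0.088), and when only library size scaled the counts (0.062), as did that of Tyms (0.07). Dut, which removes dUTP, did not pass the test (log2 fold change -0.085, 95% interval -0.29 to 0.12, adjusted p = 0.61). The summed level of the 5 genes was 2064 and 2041 CPM in fl/fl and 1663 and 1660.2 CPM in KO (log2 ratio -0.30).

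Slbp had the second largest fall of the 35, after Rpa3. It encodes the protein that binds the stem-loop of replication-dependent histone mRNAs, which carry no poly(A) tail. Its levels were 347 and 329.5 CPM in fl/fl libraries 1 and 2, and 252 and 218 CPM in KO libraries 1 and 2, a drop of 30.6% (log2 fold change -0.53, SE 0.071, adjusted p = 7.7e-05). KO library 2 was the lowest of the 4 and the genotypes did not overlap. The overlapping gene Gm10459, on the opposite strand over 7.80% of the Slbp exons, was also lower (log2 fold change -0.50, adjusted p = 0.015), and with the strand setting unknown their reads cannot be told apart in that stretch.

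The sliding clamp fell and its loader was uneven. Pcna, the ring that holds polymerases on DNA, was at 684 and 671 CPM in fl/fl libraries 1 and 2, and 517 and 499 CPM in KO libraries 1 and 2. Every KO library was below every fl/fl library (log2 fold change -0.42, SE 0.048, adjusted p = 1.5e-05). Rfc1, the large subunit of the clamp loader, was at 116 and 105 CPM in fl/fl against 86.8 and 90.1 CPM in KO, also without overlap (log2 fold change -0.32, SE 0.097, adjusted p = 0.03). Its call ended without fl/fl library 1 (-0.26, adjusted p = 0.42) or 2 (-0.41, 0.086), and with library size as sole scaling (adjusted p = 0.069), the transcript length offset (0.051) or the GC offset (0.11). The small subunits did not pass the test: log2 fold changes were -0.043 for Rfc2 (95% interval -0.26 to 0.18), -0.034 for Rfc3 (-0.40 to 0.33), -0.20 for Rfc4 (-0.54 to 0.15) and 0.17 for Rfc5 (-0.17 to 0.51). The KO libraries disagreed on the last pair. Rfc4 was at 53.6 and 54.9 CPM in fl/fl libraries 1 and 2, and 56.4 and 38.3 CPM in KO libraries 1 and 2, and Rfc5 at 62.3 and 55.1 CPM in fl/fl against 52.8 and 79.4 CPM in KO. KO library 2 was thus lowest for Rfc4 and highest for Rfc5, and without KO library 1 Rfc4 was called lower (-0.52, adjusted p = 0.0029) and Rfc5 higher (0.42, 0.0031). Wsb2, on the opposite strand over 10.7% of the Rfc5 exons, was called higher (0.90, adjusted p = 0.0064).

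Of the catalytic subunits of the leading and lagging strand polymerases, Pold1 rose and Pole did not pass the test. Pold1, of polymerase delta, was at 124 and 123 CPM in fl/fl libraries 1 and 2, and 156 and 153 CPM in KO libraries 1 and 2. Both KO libraries were above both fl/fl libraries, and this was the one rise among the 35 (log2 fold change 0.33, SE 0.080, adjusted p = 0.0089). It did not hold with an offset for GC content (0.033, adjusted p = 0.84). Without fl/fl library 1 its adjusted p was 0.13 and without library 2 0.16. At 61.0% GC its longest transcript was the richest of the 35. Pole, of polymerase epsilon, was at 80.0 and 86.3 CPM in fl/fl against 68.2 and 67.3 CPM in KO, again without overlap. It did not pass the test (log2 fold change -0.30, 95% interval -0.52 to -0.067, adjusted p = 0.069), but was called lower with the GC offset (-0.34, adjusted p = 0.049) and without either KO library. Per exon length the Pole over Pold1 ratio was -1.83 and -1.71 (log2) in fl/fl and -2.40 and -2.39 in KO, which is lower by 0.62 in KO on average, a description with no test. None of the 6 accessory subunits Pold2, Pold3, Pold4, Pole2, Pole3 and Pole4 was called by edgeR or DESeq2, while at an unadjusted p under 0.05 there was 1 lower, Pold3 (-0.31), and 1 higher, Pold4 (1.45).

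Polymerase alpha and primase, which make the RNA-DNA primers, had negative fold changes in all 4 subunits, of which 1 was called. The catalytic subunit gene Pola1 was at 140.0 and 153 CPM in fl/fl libraries 1 and 2, and 110.5 and 124 CPM in KO libraries 1 and 2. It fell (log2 fold change -0.32, SE 0.089, adjusted p = 0.02), but not without fl/fl library 2 (-0.27, adjusted p = 0.3) or with the GC offset (-0.15, 0.31). The second polymerase subunit gene, Pola2, was at 84.0 and 81.1 CPM in fl/fl against 62.5 and 79.2 CPM in KO, with the KO libraries far apart, and was not called (log2 fold change -0.22, 95% interval -0.48 to 0.037, adjusted p = 0.24). Without KO library 2 it was called lower (-0.42, adjusted p = 0.0026), and without KO library 1 it was at -0.072. For the primase genes, Prim1 was at 85.7 and 88.1 CPM in fl/fl against 73.4 and 72.5 CPM in KO and Prim2 at 61.4 and 66.5 CPM in fl/fl against 53.1 and 57.8 CPM in KO. Neither pair overlapped and neither gene was called (Prim1 log2 fold change -0.25, 95% interval -0.47 to -0.033, adjusted p = 0.11; Prim2 log2 fold change -0.21, 95% interval -0.47 to 0.053, adjusted p = 0.28). The 4 genes summed to 371 and 388 CPM in fl/fl and 299 and 333 CPM in KO (log2 ratio -0.26).

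Helicase activators did not pass the test. GINS is a ring of 4 subunits that joins MCM and CDC45, and of the 5 genes none was called by edgeR or DESeq2, with 1, Gins3, lower at an unadjusted p under 0.05. Gins3 was at 23.6 and 23.9 CPM in fl/fl libraries 1 and 2, and 13.7 and 19.8 CPM in KO libraries 1 and 2. KO library 1 alone was far down, and without KO library 2 the gene was called lower (-0.80, adjusted p = 0.0029; all libraries: log2 fold change -0.50, 95% interval -0.98 to -0.023, adjusted p = 0.14). Cdc45 was at 76.7 and 69.4 CPM in fl/fl against 63.6 and 61.3 CPM in KO without overlap (log2 fold change -0.23, 95% interval -0.47 to 0.018, adjusted p = 0.2). Intervals were -0.29 to 0.45 for Gins1, -0.26 to 0.091 for Gins2 and -0.46 to 0.13 for Gins4. Falls of the size seen for Pcna lie outside the intervals of Gins1 and Gins2 but inside that of Gins4. Gse1, on the opposite strand, covers 67.3% of the Gins2 exons, so the value and interval of Gins2 are uncertain. Of the 6 MCM genes that form the ring itself, Mcm4 (log2 fold change -0.43, SE 0.063, adjusted p = 0.00016) and Mcm6 (log2 fold change -0.22, SE 0.055, adjusted p = 0.011) fell, and Mcm2, Mcm3, Mcm5 and Mcm7 were at -0.070, -0.11, 0.044 and -0.098 without a call. The call of Mcm6 ended without fl/fl library 1 (adjusted p = 0.076) or 2 (0.07), when only library size scaled the counts (0.058) and with the GC offset (0.064). With the GC offset 3 MCM genes were called lower, Mcm4, Mcm3 (-0.21, adjusted p = 0.04) and Mcm7 (-0.21, 0.022), and Mcm7 was also called without KO library 2 (-0.19, 0.0058). Mcm5 had a log2 fold change of -0.032 with the GC offset.

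Both genes of Okazaki fragment maturation fell. Fen1, the nuclease that trims flaps, was at 219.8 and 212 CPM in fl/fl libraries 1 and 2, and 168 and 183 CPM in KO libraries 1 and 2, and Lig1, the ligase that seals the nicks, at 285 and 297 CPM in fl/fl against 253 and 249 CPM in KO. Neither overlapped between genotypes (Fen1 log2 fold change -0.30, SE 0.073, adjusted p = 0.009; Lig1 log2 fold change -0.21, SE 0.061, adjusted p = 0.023). The antisense gene Gm10143 covers 78.8% of the Fen1 exons and was lower as well (-0.38, adjusted p = 0.00099), so the value of Fen1 is uncertain. Lig1 was no longer called without fl/fl library 1 (adjusted p = 0.079) or 2 (0.3) or when only library size scaled the counts (0.089), and Fen1 not without fl/fl library 1 (-0.29, adjusted p = 0.12).

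Replication protein A, the trimer that coats single-stranded DNA, had lower levels of all 3 subunit genes in both KO libraries than in both fl/fl libraries, and 2 of them fell. Rpa3, of the smallest subunit, had the largest fall of the 35, at 30.2 and 25.7 CPM in fl/fl libraries 1 and 2, and 17.9 and 15.4 CPM in KO libraries 1 and 2. Its counts were 214 and 178 against 128 and 105, so it rests on few reads (log2 fold change -0.75, SE 0.20, adjusted p = 0.018), and it was not called without fl/fl library 1 (adjusted p = 0.28), without fl/fl library 2 (0.067) or with the GC offset (-0.52, 0.11). Rpa1, of the large subunit, was at 203 and 213 CPM in fl/fl against 162 and 181 CPM in KO and fell (log2 fold change -0.28, SE 0.076, adjusted p = 0.017). Its call ended without fl/fl library 1, where it just missed the threshold, and without library 2 (adjusted p = 0.21). Rpa2 was at 80.9 and 80.1 CPM in fl/fl against 69.7 and 63.8 CPM in KO and was not called (log2 fold change -0.27, 95% interval -0.50 to -0.037, adjusted p = 0.11), except with the transcript length offset (-0.38, adjusted p = 0.024) and without KO library 1 (-0.35, 0.015). The 3 genes summed to 314 and 319 CPM in fl/fl and 249.8 and 259.8 CPM in KO (log2 ratio -0.31).

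The fork protection genes split. Clspn, the checkpoint mediator claspin, was at 141 and 139 CPM in fl/fl libraries 1 and 2, and 111 and 109 CPM in KO libraries 1 and 2 and fell without overlap (log2 fold change -0.35, SE 0.084, adjusted p = 0.0079). Its call ended without fl/fl library 1 (adjusted p = 0.1) or 2 (0.089). Tipin and Timeless encode partners in one complex at the fork, and neither was called (Tipin log2 fold change 0.065, 95% interval -0.16 to 0.29, adjusted p = 0.74; Timeless log2 fold change 0.11, 95% interval -0.18 to 0.40, adjusted p = 0.65). Timeless was at 59.6 and 66.7 CPM in fl/fl against 59.2 and 76.9 CPM in KO, so the KO libraries spanned the fl/fl range, and Tipin lay between 77.5 and 86.0 CPM in all 4.

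Factors of chromatin behind the fork also split. Uhrf1, which reads hemimethylated DNA and brings in the maintenance methyltransferase, was at 398 and 382 CPM in fl/fl libraries 1 and 2, and 323 and 316 CPM in KO libraries 1 and 2 and fell (log2 fold change -0.29, SE 0.056, adjusted p = 0.0019). Dnmt1, that methyltransferase, was at 429 and 437 CPM in fl/fl against 364 and 405 CPM in KO, without overlap. It missed the threshold (log2 fold change -0.17, 95% interval -0.30 to -0.045, adjusted p = 0.058) but passed it with DESeq2, with DESeq2 size factors, with no filter, with the GC offset (-0.30, adjusted p = 0.0027) and without KO library 2 (-0.27, 0.00013). The large subunits of chromatin assembly factor 1, which places new histones, were at 126 and 129 CPM in fl/fl against 127 and 146 CPM in KO for Chaf1a and 54.5 and 65.4 CPM in fl/fl against 61.3 and 57.2 CPM in KO for Chaf1b. The genotypes overlapped for both, and neither was called (Chaf1a log2 fold change 0.097, 95% interval -0.091 to 0.29, adjusted p = 0.51; Chaf1b log2 fold change -0.015, 95% interval -0.29 to 0.26, adjusted p = 0.96). Ubxn6, on the opposite strand, covers 52.5% of the Chaf1a exons, so Chaf1a is uncertain.

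**Figure D2:**
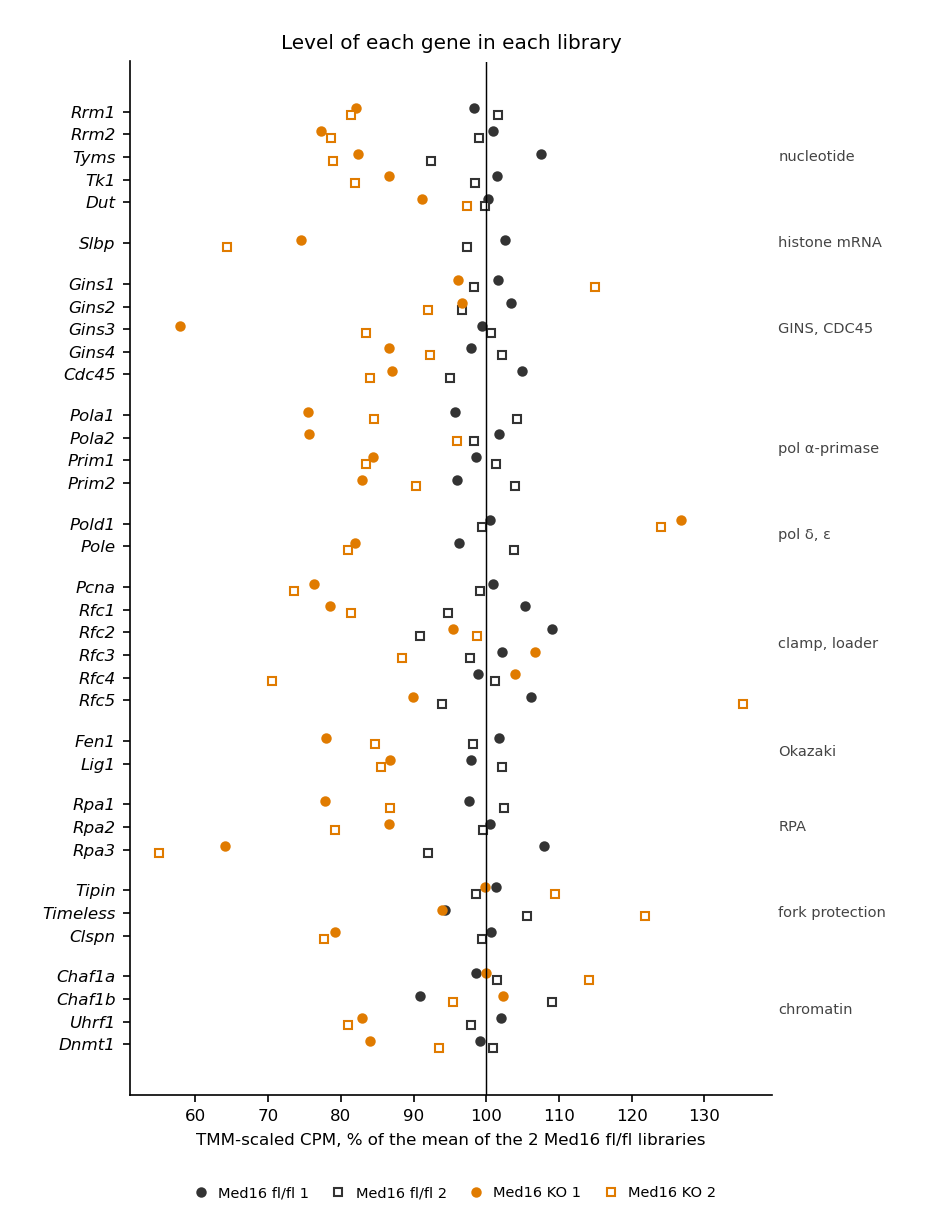
Level of each of the 35 genes in each library (TMM-scaled CPM) as a percentage of the mean of the fl/fl libraries (x axis). Circles are library 1 and open squares library 2 of each genotype, dark for fl/fl and orange for KO; KO library 2 stands apart from KO library 1 for Rfc4, Rfc5 and Gins3.

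The spread between libraries was wider in KO. Over the 35 genes the median absolute log2 difference between libraries of a genotype was 0.059 in fl/fl and 0.10 in KO, and the KO difference was the larger one for 22 of them. Over the 6194 genes tested at or above the level of the lowest of the 35, it was 0.094 and 0.15.

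Summed over each complex, the KO libraries were below the fl/fl libraries for every group except the catalytic subunits of polymerases delta and epsilon. The log2 ratio of the sums was -0.30 for nucleotide enzymes, -0.31 for replication protein A, -0.30 for the clamp and loader, and -0.25 for Okazaki fragment maturation. It was smaller for chromatin factors (-0.17), GINS with CDC45 (-0.14) and fork protection (-0.12), and 0.11 for the polymerase pair. A sum follows its most abundant gene, such as Pcna in the clamp group, and these ratios are descriptions with no test.

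**Figure D3:**
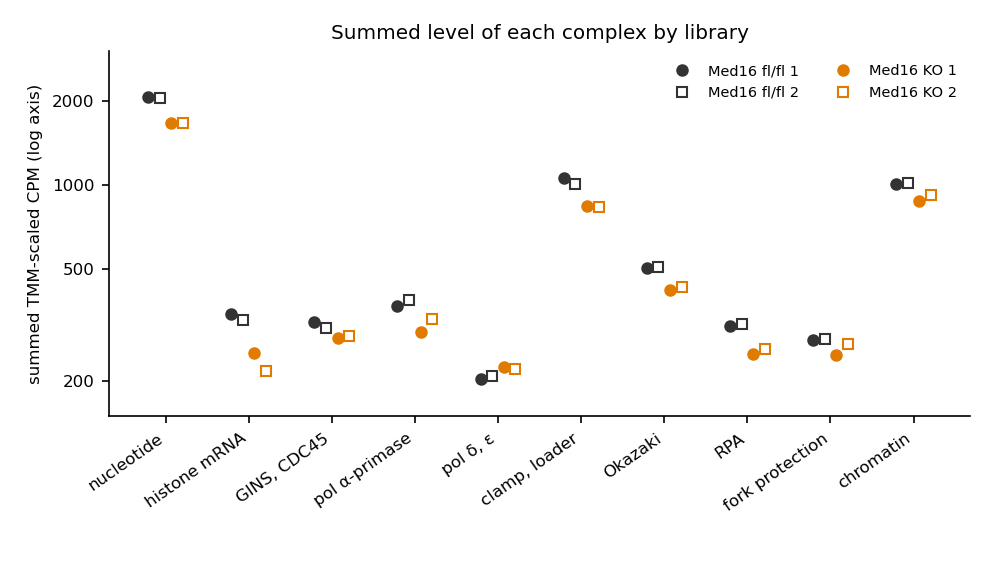
Summed TMM-scaled CPM of the genes of each complex (log axis) in each of the 4 libraries, circles for library 1 and open squares for library 2, dark for fl/fl and orange for KO. The orange points are below the dark ones in 9 of 10 groups, and above them for polymerases delta and epsilon.

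Per exon length, the 35 genes spanned a wide range. In fl/fl, Rrm2 (313 CPM per kb) and Pcna (282) stood above the next, Uhrf1 (91.5) and Fen1 (89.1), and Rfc3 (8.68) and Pole (7.45) were lowest. Lengths are exon unions of the GENCODE M21 annotation, so genes with rare long isoforms read low. Subunits of one complex differed in level: the Rfc4 value was 35.4 and that of Rfc3 8.68, and Gins4 was at 35.5 and Gins3 at 8.75. Rrm2 was above Rrm1 by 2.35 and 2.27 (log2) in fl/fl and by 2.22 and 2.26 in KO. The Rpa3 over Rpa1 ratio was -0.45 and -0.75 in fl/fl and -0.88 and -1.26 in KO, lower in both KO libraries.

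**Figure D4:**
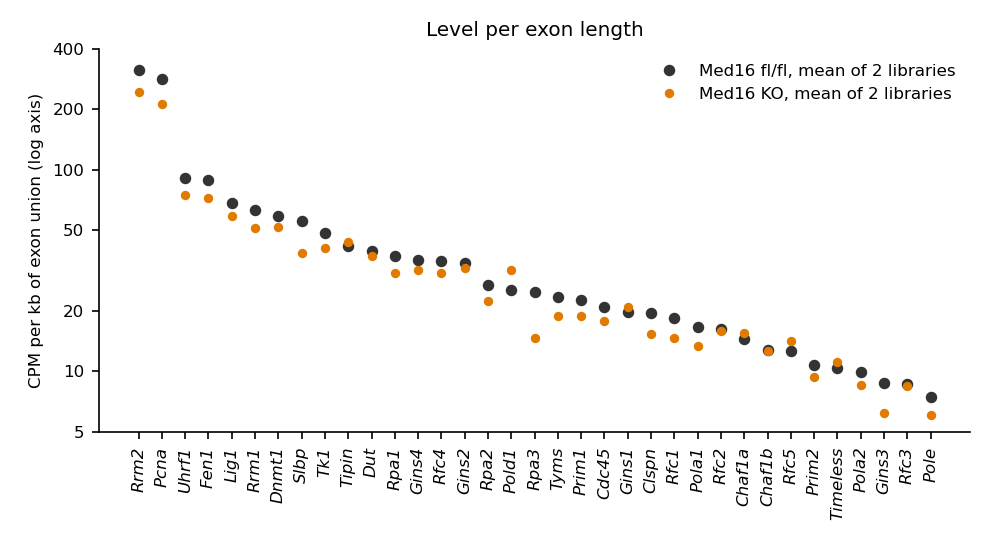
Mean TMM-scaled CPM per kb of exon union (log axis) for each of the 35 genes, ordered by the fl/fl level, with fl/fl in dark and KO in orange. Rrm2 and Pcna stand above the other genes in both genotypes.

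GC content moved with the fold changes over the whole table and is given beside these results. Among all genes tested, the median log2 fold change was -0.17 for longest transcripts under 45% GC, -0.042 from 45% to 50%, 0.097 from 50% to 55% and 0.23 from 55% up. The 35 genes were below that in the 3 lower ranges, with medians of -0.25 (9 genes), -0.31 (11) and -0.17 (14), and Pold1 was the only one at or above 55%. Across the 35, Pearson's r of log2 fold change with GC was 0.53 and Spearman's rho 0.39, a description over genes measured in the same libraries. With a GC offset 12 of the 35 were called lower and none higher (17 and 1 at an unadjusted p under 0.05), and the median was -0.21. Of the 15 calls, 10 were kept: Tyms, Pola1, Pold1, Rfc1 and Rpa3 were lost, and Pole and Dnmt1 became lower.

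**Figure D5:**
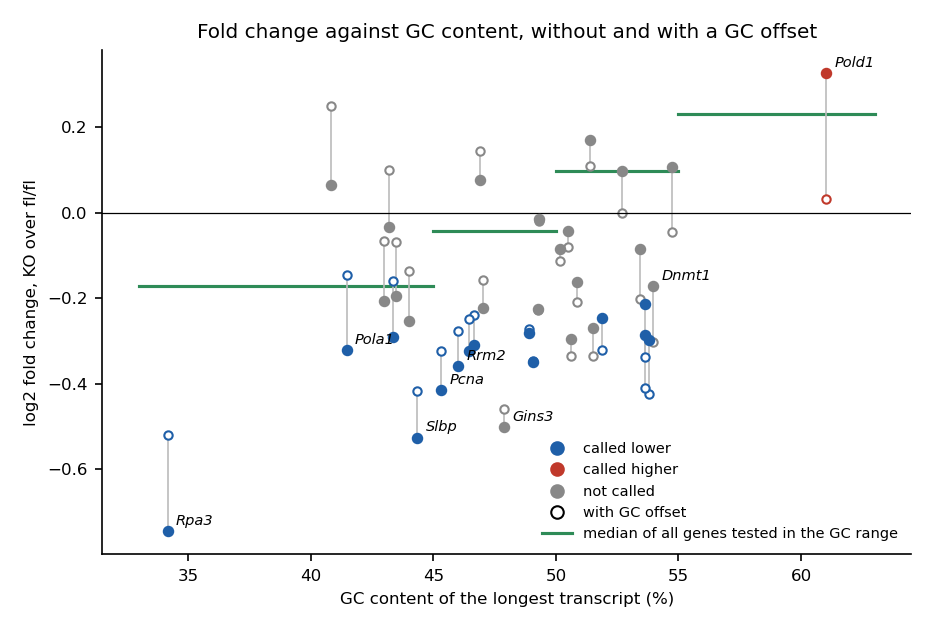
Log2 fold change of each of the 35 genes (y axis) against the GC content of its longest transcript (x axis, %). Filled points are without and open points with the GC offset, joined by a line, and green lines are the medians of all genes tested in each GC range (the outer ranges go on beyond the plot); Pold1 moved from 0.33 to 0.033.

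Among further genes of the replication pathway, falls were also more frequent than rises. Their list was chosen with earlier results of these data known, so it is no independent check of the results above. Of 67 further genes listed by knowledge of the pathway, 65 were tested, 18 fell and 2 rose (27.7% and 3.08% of those tested, against 9.89% and 8.5% of all genes), with a median of -0.12. The falls were among fork factors (9 of 20 tested), histone chaperones and partners of chromatin replication (4 of 9), MCM genes (2 of 6) and nucleotide enzymes (3 of 24). Chek1, the checkpoint kinase downstream of claspin, was at 36.0 and 29.9 CPM in fl/fl libraries 1 and 2, and 18.5 and 15.7 CPM in KO libraries 1 and 2, the largest fall of the list (log2 fold change -0.95, SE 0.20, adjusted p = 0.003), which ended without fl/fl library 1 (-0.82, adjusted p = 0.087). Dbf4 and Cdc7, the subunits of the kinase that fires origins, fell (Dbf4 log2 fold change -0.61, SE 0.094, adjusted p = 0.00026; Cdc7 log2 fold change -0.57, SE 0.17, adjusted p = 0.028); the call of Cdc7 ended without fl/fl library 1 (adjusted p = 0.072) or 2 (0.26) and with the GC offset (0.095). Uhrf2, the relative of Uhrf1, fell (log2 fold change -0.65, SE 0.098, adjusted p = 0.00021), as did Atad5, which unloads PCNA (log2 fold change -0.58, SE 0.10, adjusted p = 0.00087), and Donson, a factor in helicase assembly (log2 fold change -0.51, SE 0.11, adjusted p = 0.0042). The call of Donson ended without fl/fl library 2 (-0.48, adjusted p = 0.059).

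Among the further nucleotide enzymes Dck (-0.42) and Paics (-0.34) were among those that fell, and 2 rose. Cad, the enzyme that starts pyrimidine synthesis, was at 66.1 and 63.2 CPM in fl/fl libraries 1 and 2, and 82.2 and 109.6 CPM in KO libraries 1 and 2, and Atic, which closes the purine ring, at 53.9 and 50.3 CPM in fl/fl against 64.4 and 70.3 CPM in KO. Both rose without overlap (Cad log2 fold change 0.57, SE 0.13, adjusted p = 0.0057; Atic log2 fold change 0.37, SE 0.12, adjusted p = 0.047). With the GC offset neither was called (Cad 0.35, adjusted p = 0.094; Atic 0.34, 0.077), and Atic was also lost with DESeq2, DESeq2 size factors, no filter, the length offset and when fl/fl library 1, fl/fl library 2 or KO library 2 was left out. Over the 24 further nucleotide genes tested the median was 0.033.

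For comparison within the cell cycle, 11 of 14 G2 and M phase genes fell and none rose by edgeR, while 9.89% of all genes tested were called lower and 8.5% higher. At an unadjusted p under 0.05, 13 were lower and none higher. DESeq2 called 12 lower and none higher, and with the GC offset 10 were called lower and none higher. The median was -0.43. This list too was chosen with earlier results of these data known. Mki67 was at -0.77 and Top2a at -0.62. Their median is lower than that of the 35 genes of DNA synthesis, and that difference was not tested.

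Some of the 35 genes share sequence with others. Opposite-strand genes overlap the exons of 12 of them in the GENCODE M21 annotation, over more than 50% for Fen1, Chaf1a and Gins2 (67.3%, with Gse1). Pcna has a near-identical copy, Pcna-ps2, that matches 51.4% of its longest transcript at 99.2% identity, and Gm5648 matches 44.3% of Uhrf1 at 98.3%. Between 23.6% and 26.4% of the assigned and unassigned counts of a library were set aside as not unique. The levels of these genes are therefore uncertain.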

How the data were processed

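The deposited files hold, for each of the 4 libraries, raw read counts per gene that the authors made with HTSeq 0.12.4 after HISAT2 2.1.0 alignment, build GRCm39, per the submitters' processing notes, which also name FastQC 0.11.7, DESeq2 and HOMER. Neither the strand setting nor the annotation release is given in the sources used here. The 5 summary rows of each table were left out. Shares given for them are of these rows and the assigned counts together. By library, 35.8% to 36.7% had no feature, 23.6% to 26.4% were not unique and 2.54% to 2.96% were ambiguous. Not aligned were 1.05% and 0.826% in fl/fl libraries 1 and 2, and 2.69% and 3.27% in KO libraries 1 and 2. Genes with a count numbered 18947 and 19016 in fl/fl, and 16892 and 16479 in KO. The part of these differences in the results was not tested.

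Counts of the 13052 genes that passed filterByExpr were scaled by TMM and tested with edgeR 4.0.16 (limma 3.58.1, R 4.3.3) by the quasi-likelihood test, KO against fl/fl, with Benjamini-Hochberg adjustment over all genes and a threshold of 0.05. The scripts were tested on simulated data. Genes named are Med16, the 35, the called further genes with the 6 largest changes in each direction, the MCM genes, the 2 G2 and M phase genes with the smallest adjusted p and the 2 most abundant markers of a list; any other gene was named after its values were seen. The values of 1 further gene are not reported here. The members and lists were chosen with earlier results of these data known. Alternatives were DESeq2 1.42.0 and its size factors, library size only, no filter, GC and transcript length offsets (lowess), an assumed coefficient of variation, a replicate block and leaving out each library. GC, lengths and overlaps came from GENCODE M21 (GRCm38), matched by gene identifier, and promoters from RefSeq (GRCm38.p6); no coordinates of the count tables were used. Libraries held 6749196 to 7216333 counts. Intervals and p values rest on the spread between these libraries only. The spread of each gene was drawn toward that of all genes, with a median of 13.1 prior degrees of freedom against 2 residual ones.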

Additional observations from a re-analysis of the deposited data

How the results depend on the processing

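Given an assumed coefficient of biological variation of 0.2, 620 genes were called in place of 2400 (edgeR's likelihood ratio test). Of the 35, 0 were lower and 0 higher (1 and 0 at an unadjusted p under 0.05). Of the further replication genes 0 were lower and 1 higher, and 0 G2 and M phase genes were lower. This setting changed both the spread and the test, and the part of each in the lost calls was not tested. Leaving out 1 library at a time gave 1158 to 3998 genes called, 6 to 18 of the 35 lower and 0 to 2 higher, and 8 to 29 further genes lower and 1 to 5 higher. Of those further genes, 1 rather than 2 was called higher with DESeq2 size factors, DESeq2, no filter or a transcript length offset, and 0 with the GC offset, which also left 0 of the 35 higher. With library size as sole scaling, genes called were 1365 higher and 1054 lower (56.4% higher, against 1109 and 1291, 46.2%), the median of G2 and M phase genes was -0.37, and summed levels (log2 ratio) were -0.20 for all 35, -0.25 for nucleotide enzymes, -0.085 for GINS and CDC45, 0.16 for polymerases delta and epsilon, -0.25 for clamp and loader, -0.20 for Okazaki fragment maturation, -0.26 for replication protein A, -0.062 for fork protection, -0.11 for chromatin factors. Nucleotide enzymes were at -0.31 with DESeq2 size factors. Without 1 library, sums ran -0.31 to -0.30 for nucleotide enzymes, -0.64 to -0.43 for Slbp, -0.17 to -0.10 for GINS and CDC45, -0.34 to -0.19 for polymerase alpha and primase, 0.090 to 0.12 for polymerases delta and epsilon, -0.34 to -0.27 for clamp and loader, -0.27 to -0.23 for Okazaki fragment maturation, -0.34 to -0.29 for replication protein A, -0.18 to -0.053 for fork protection, -0.21 to -0.13 for chromatin factors. Replicate numbers did not pair the libraries (r of deviations -0.01). A replicate block gave 15 of the 35 lower and 1 higher, Dnmt1 being gained (adjusted p = 0.027), and 2767 genes in all. Signs of log2 fold changes turned for uncalled genes of the 35 and for other listed genes (the cause was not tested): Gins1 -0.014 (transcript length offset), Rfc2 0.011 (library size only), 0.00036 (transcript length offset), Rfc3 0.021 (library size only), 0.10 (GC content offset), Tipin -0.040 (transcript length offset), Timeless -0.044 (GC content offset), Chaf1b 0.039 (library size only), Mcm5 -0.032 (GC content offset), Hba-a1 -0.0054 (GC content offset), Gp9 0.012 (library size only). Without 1 library their ranges were Gins1 -0.070 to 0.19, Rfc2 -0.18 to 0.081, Rfc3 -0.19 to 0.081, Rfc4 -0.52 to 0.042, Rfc5 -0.17 to 0.42, Tipin -0.016 to 0.12, Timeless -0.10 to 0.27, Chaf1a -0.014 to 0.18, Chaf1b -0.15 to 0.11, Mcm5 -0.016 to 0.077, Gp9 -0.21 to 0.12, Cd8a -0.51 to 0.42. GC and length offsets were not run for summed levels. Where leaving a library out left 1 of a genotype, it was assumed to vary like the other genotype. At 2 libraries a genotype, intervals of the lowest genes, such as Gins3 (-0.98 to -0.02), are wide.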
